A study of Homo sapiens with 6 samples.

Results

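The 52 genes described here drive or mark the human cell division cycle. They were taken by symbol from a fixed list and make up 52 of the 57121 genes that had an exon bin in the count tables. The list follows known roles in the cycle, and it was drawn up with earlier results of these data known. RNA came from HEK293, an established line of human embryonic kidney cells that carries the E1A and E1B genes of an adenovirus. There were 3 libraries labelled WT and 3 labelled MUL1(−/−), the latter from the same line after MUL1, which encodes a ubiquitin ligase of the mitochondrial outer membrane, had been inactivated with CRISPR-Cas9. Both genotypes grew in the same serum-supplemented medium, without drug treatment. The labels do not say which MUL1(−/−) clone was sequenced or whether the 3 libraries came from separate cultures, so a p-value measures only the spread between libraries, which may be technical.

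A cell passes from G1 into S phase when cyclin D with CDK4 or CDK6, and then cyclin E with CDK2, phosphorylate the pocket proteins RB1, RBL1 and RBL2. The pocket proteins then let go of the E2F transcription factors, which switch on genes for DNA synthesis. CDK inhibitors of the INK4 and CIP/KIP families restrain these kinases, and p53 raises one of them, CDKN1A, after DNA damage. Cyclin A, cyclin B and CDK1 carry the cell through G2 into mitosis, where the Aurora kinases, PLK1 and the spindle checkpoint order chromosome segregation. In HEK293 the E1A protein binds the pocket proteins and an E1B protein binds p53, so both brakes are already impaired in either genotype.

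Promoters of many S phase genes carry an E2F site, and those of many mitotic genes a CHR element, which the DREAM and MuvB complexes bind. RefSeq promoters on GRCh38.p14, each from 250 bases before to 50 bases after a gene start, were at hand for 41 of the 52 genes, several with more than 1 start, 65 in all. An exact TTTCGCGC or TTTGGCGC on either strand, the E2F letters searched, was in 14 of these 65 promoters (21.5%) and in 1.15% of all 35116 promoters. The CHR letters TTTGAA or TTCGAA were in 16 of the 65 (24.6%) against 16.4% of all promoters, and CCAAT, also read on both strands, in 40 of the 65 (61.5%) against 34.6%. These genes include well-known E2F targets, so the shares describe the list and are not a result of the comparison. A palindromic site, as in MCM2, matches on both strands and was counted once per promoter, and an E2F match can share bases with a CCAAT match, as it does in MCM7. The windows below hold the E2F letters in capitals, with 11 bases before and 11 after, read 5′ to 3′ on the gene's strand. RBL1 holds the other E2F letters too, in lower case near the end of its window. The set was chosen because genes with the same letters went in different directions: RBL1, E2F1, E2F2, MCM7 and CDK1 were lower in MUL1(−/−), CDC6 was higher, and CDC25A, GMNN and MCM3 did not pass the test.
E2F1 at chr20:33686387-33686416 (minus strand): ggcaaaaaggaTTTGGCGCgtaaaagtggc
E2F2 at chr1:23531257-23531286 (minus strand): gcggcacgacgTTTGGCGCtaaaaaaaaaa
RBL1 at chr20:37096005-37096034 (minus strand): cagctgcagatTTTCGCGCgctttggcgca
MCM7 at chr7:100101388-100101417 (minus strand): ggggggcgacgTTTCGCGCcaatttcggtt
CDK1 at chr10:60778339-60778368 (plus strand): tttcctctttcTTTCGCGCtctagccaccc
CDC6 at chr17:40287875-40287904 (plus strand): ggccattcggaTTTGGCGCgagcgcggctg
CDC25A at chr3:48188443-48188472 (minus strand): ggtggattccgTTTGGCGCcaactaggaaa
GMNN at chr6:24775322-24775351 (plus strand): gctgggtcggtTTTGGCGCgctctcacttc
MCM3 at chr6:52284728-52284757 (minus strand): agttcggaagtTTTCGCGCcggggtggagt

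Windows around the CHR letters, again in capitals, are given for mitotic genes that rose (MKI67 and CDC20), for CDK1, which fell, and for 3 that did not pass the test (PLK1, CCNB2 and BUB1B). Counted from the gene start, the first base of the element lies between -65 and -13 in these windows. MKI67, CDC20 and CDK1 hold further matches that are not shown.
MKI67 at chr10:128126453-128126482 (minus strand): ttagcgccagaaTTTGAAtcttcgttttcg
CDC20 at chr1:43358904-43358933 (plus strand): cgacggttggatTTTGAAggagccaatagg
CDK1 at chr10:60778453-60778482 (plus strand): tagcgcggtgagTTTGAAactgctcgcact
PLK1 at chr16:23678848-23678877 (plus strand): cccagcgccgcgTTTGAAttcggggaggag
CCNB2 at chr15:59105105-59105134 (plus strand): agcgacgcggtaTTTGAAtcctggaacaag
BUB1B at chr15:40161034-40161063 (plus strand): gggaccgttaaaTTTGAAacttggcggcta

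The count tables held raw counts for exon bins, and the count of a gene was the sum over its bins. Gene counts came to 131324928 to 147652611 per WT library and 126201096 to 126808719 per MUL1(−/−) library. Values are given as CPM, counts per 1000000 counts of the library after TMM scaling, and 3 counts, taken as the floor of detection, equalled 0.0205 to 0.0234 CPM. All 52 genes lay far above that floor. Within each genotype library 3 stood apart: over the most counted bin of each gene, chi-square over its degrees of freedom was 2.93 between WT libraries 1 and 2 and 9.42 to 10.8 against WT library 3, and 5.35 between MUL1(−/−) libraries 1 and 2 and 8.70 to 10.2 against MUL1(−/−) library 3. Values without library 3 of both genotypes are therefore given where leaving these libraries out changed a call. MUL1 itself had 14.7 to 18.4 CPM in WT and 16.1 to 18.5 CPM in MUL1(−/−) libraries (log2 fold change 0.14, SE 0.10, edgeR adjusted p = 0.325), and such counts do not show whether its coding sequence was disrupted. Of 7 genes known from HEK293, VIM, KRT8, KRT18 and NEFL made up most of a sum of 1267 to 1473 CPM in WT and 903 to 1076 CPM in MUL1(−/−), with 1 of the 7 higher and 3 lower, and PAX2, NEFM and INA were low. PAX2 was lower past both thresholds, with means of 9.14 CPM in WT and 2.63 CPM in MUL1(−/−). NEFM was higher past both, at 1.68 and 3.51 CPM. KRT8 and VIM were lower, from 313 to 164 CPM and from 813 to 642 CPM. Markers of other cell types summed to 37.1 to 45.6 CPM in WT and 45.7 to 51.0 CPM in MUL1(−/−) over 11 genes, of which 4 were higher, 1 lower, 5 not past and 1, CD3E, too low to test. PTPRC, PECAM1, COL3A1 and DCN were higher past both thresholds, with means of 0.0919, 0.05005, 4.96 and 1.15 CPM in WT and 0.353, 0.216, 12.9 and 2.82 CPM in MUL1(−/−), and COL1A1 was lower, at 21.2 and 16.2 CPM. COL1A1, COL3A1 and MBP made up most of that sum, the blood, liver, endothelial and muscle markers PTPRC, LYZ, HBB, ALB, PECAM1 and MYOD1 were each below 1 CPM, and the part of these sums in the results was not tested.

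In MUL1(−/−), 28 of the 52 cell cycle genes passed the test (adjusted p under 0.05, edgeR's quasi-likelihood test over 25172 genes), of which 11 were higher and 17 lower. The background was high: 37.6% of all tested genes passed, 18.8% higher and 18.8% lower. Among the 8412 tested genes at or above the level of the lowest of the 52, 47.2% passed, against 53.8% of the 52. Only CDK6 was also past an absolute log2 fold change of 1, the study's second threshold, a mark that 4.25% of all tested genes passed as higher and 3.88% as lower. The genotypes did not overlap for 30 of the 52 genes, or 57.7%, against 48.5% of all tested genes and 57.3% of the 8412. Most differences were small, with 43 of the 52 under 0.5 on the log2 scale and a median log2 fold change of -0.09, against -0.01 over all tested genes. The split into higher and lower depended in part on the scaling. TMM factors were 0.946 to 0.992 in WT and 1.02 to 1.03 in MUL1(−/−) libraries. With library totals in their place 27 genes passed. CCND2, CCND3 and TYMS were then no longer called lower, and CCNE1 and PLK1 were called higher. With library 3 of both genotypes left out, 9 were higher and 23 lower, 25 of them among the 28. That fit drew its spread almost wholly from other genes (median prior degrees of freedom 156 against 10.8 with all libraries, and 2 against 4 residual), so its p-values are far smaller and are not to be set against the others by size. Since only bulk RNA was measured, a smaller share of cells in a phase of the cycle cannot be told apart from less RNA per cell.

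**Figure D1:**
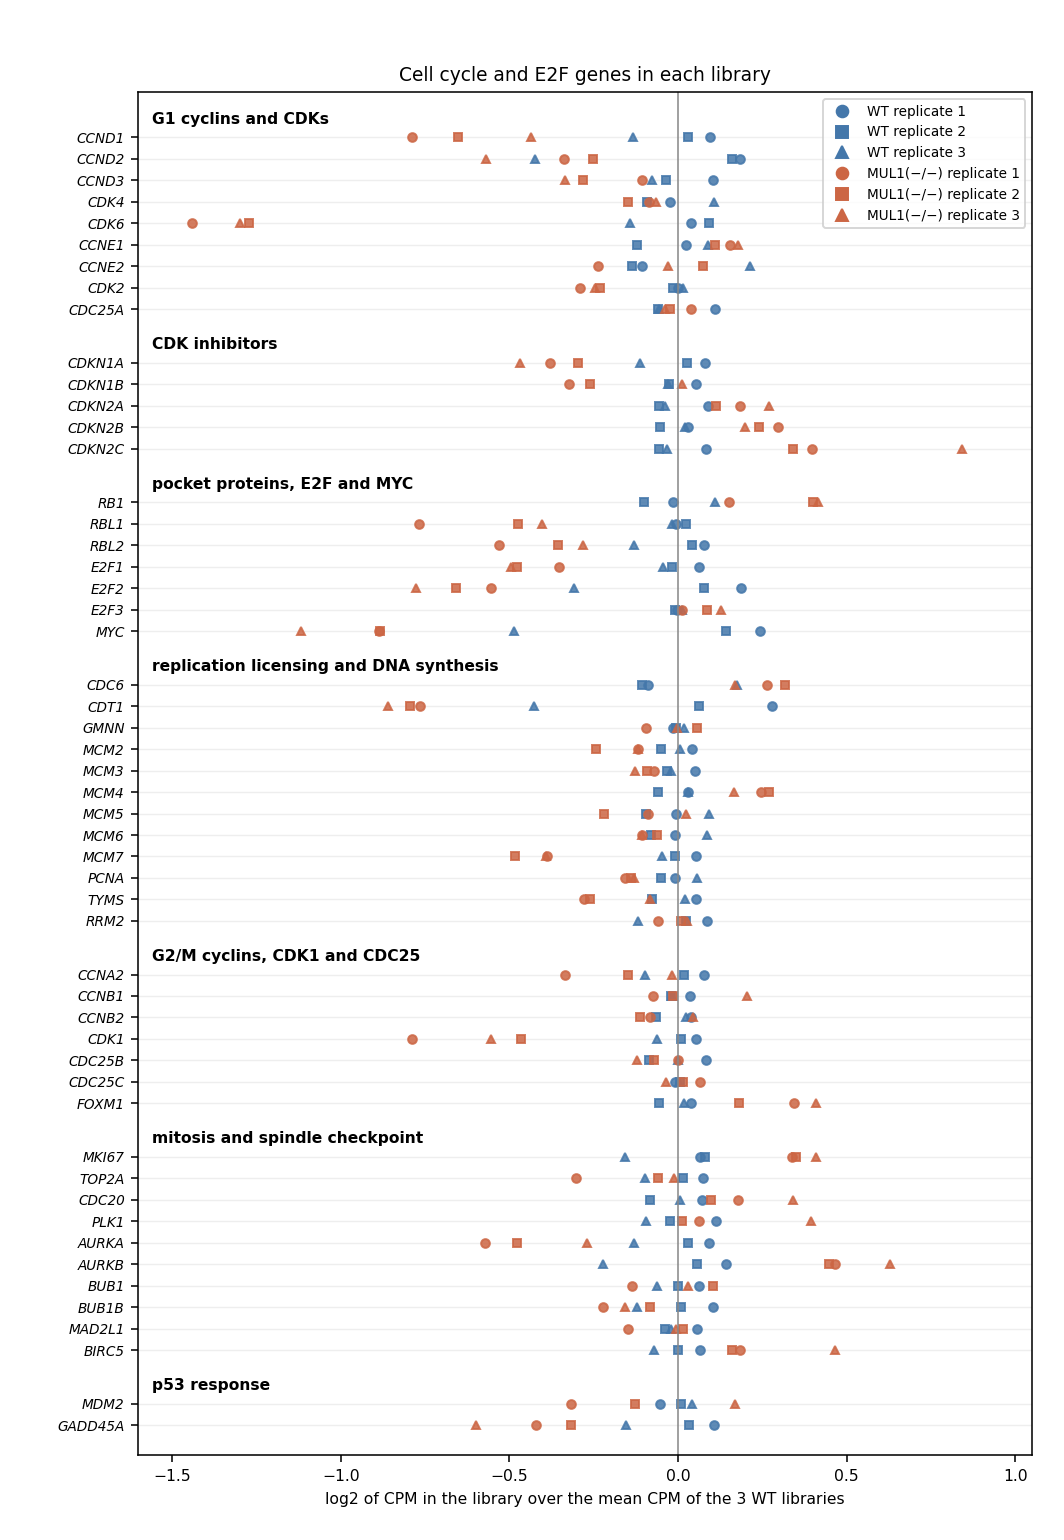
Each row is a gene, grouped by role. The x axis gives the log2 of its CPM in a library over the mean of the 3 WT libraries, with blue for WT, orange for MUL1(−/−) and a symbol for each replicate number. CDK6 lies furthest left in all 3 MUL1(−/−) libraries. For MCM5, MCM6, BUB1, BUB1B and MAD2L1 the points of the genotypes overlap near 0, while those of MCM2, MCM3, MCM4 and MCM7 do not overlap.

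G1 cyclins and CDKs went one way among those that passed. Of 9 genes, 5 were lower (CDK6, CCND1, CCND2, CCND3 and CDK2) and none was higher, while CDK4, CCNE1, CCNE2 and CDC25A did not pass. CDK6 (chr7:92604921-92836594), the kinase partner of cyclin D alongside CDK4, had 87.9, 91.3 and 77.6 CPM in WT libraries 1 to 3 and 31.5, 35.5 and 34.8 CPM in MUL1(−/−) libraries 1 to 3. Every MUL1(−/−) library was below every WT library, with no library near the other genotype. Its mean went from 85.6 ± 7.11 to 33.9 ± 2.1 CPM (mean ± SD, n = 3 each). On the log2 scale this was -1.34 (SE 0.08, edgeR adjusted p = 1.23e-08). Each of its 10 exon bins with a mean of at least 100 counts was lower in every MUL1(−/−) library.

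CCND1 (chr11:69641087-69654474), cyclin D1, had 78.4, 74.9 and 66.9 CPM in WT libraries 1 to 3 and 42.5, 46.7 and 54.3 CPM in MUL1(−/−) libraries 1 to 3. The genotypes were separate, and library 3 came nearest to the other genotype on both sides. CCND1 had a log2 fold change of -0.62 (SE 0.09, edgeR adjusted p = 8.6e-05), and -0.78 (edgeR adjusted p = 8.78e-18) without library 3 of both genotypes. Bins that another gene's exon touches hold 54.1% of the CCND1 counts, and without them its log2 fold change was -0.60 (edgeR adjusted p = 0.000121). CCND2 (chr12:4273772-4305350), cyclin D2, was counted at 73.4, 72.2 and 48.1 CPM in WT libraries 1 to 3 and 51.1, 54.2 and 43.5 CPM in MUL1(−/−) libraries 1 to 3. WT library 3 lay below 2 of the MUL1(−/−) libraries, so the genotypes overlapped. Its log2 fold change was -0.38 (SE 0.13, edgeR adjusted p = 0.0311), -0.47 (edgeR adjusted p = 3.94e-08) without library 3 of both genotypes, and its call was lost with library totals (edgeR adjusted p = 0.0771) and without any 1 of WT libraries 1 and 2 and MUL1(−/−) libraries 1 and 3, where edgeR adjusted p was 0.0813 to 0.154.

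The other G1 genes differed less. CCND3, cyclin D3, changed by -0.24 (SE 0.08, edgeR adjusted p = 0.028) and CDK2, the partner of cyclins E and A, by -0.25 (SE 0.06, edgeR adjusted p = 0.00447) on the log2 scale, both without overlap. The most counted bin of CDK2 alone gave -0.15 (edgeR adjusted p = 0.166), where its call was lost. The CCND3 call was lost with library totals (-0.17, edgeR adjusted p = 0.099) and without any 1 of WT libraries 1 and 2 and MUL1(−/−) libraries 2 and 3 (edgeR adjusted p 0.0554 to 0.142). CDK4, the other kinase partner of cyclin D, had a log2 fold change of -0.10 (SE 0.07, edgeR adjusted p = 0.278). The cyclin E genes CCNE1 and CCNE2 had 0.15 (0.131) and -0.06 (0.711), with the edgeR adjusted p in parentheses, and CDC25A, the phosphatase that activates CDK2, had -0.01 (0.948). CCNE1 passed without library 3 of both genotypes, at 0.18 (edgeR adjusted p = 0.0474), and with library totals, at 0.22 (edgeR adjusted p = 0.0257). Over the 9 genes, the mean log2 ratio to the WT mean was -0.34, -0.30 and -0.32 in MUL1(−/−) libraries 1 to 3 and 0.05, -0.02 and -0.04 in the WT libraries. The WT values lie near 0 because each ratio is taken to the WT mean. CDK6 weighs most in the mean of the 9 genes, whose median log2 fold change was -0.24. Over all 52 genes the mean log2 ratio was -0.18, -0.14 and -0.09 in MUL1(−/−) libraries 1 to 3.

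**Figure D2:**
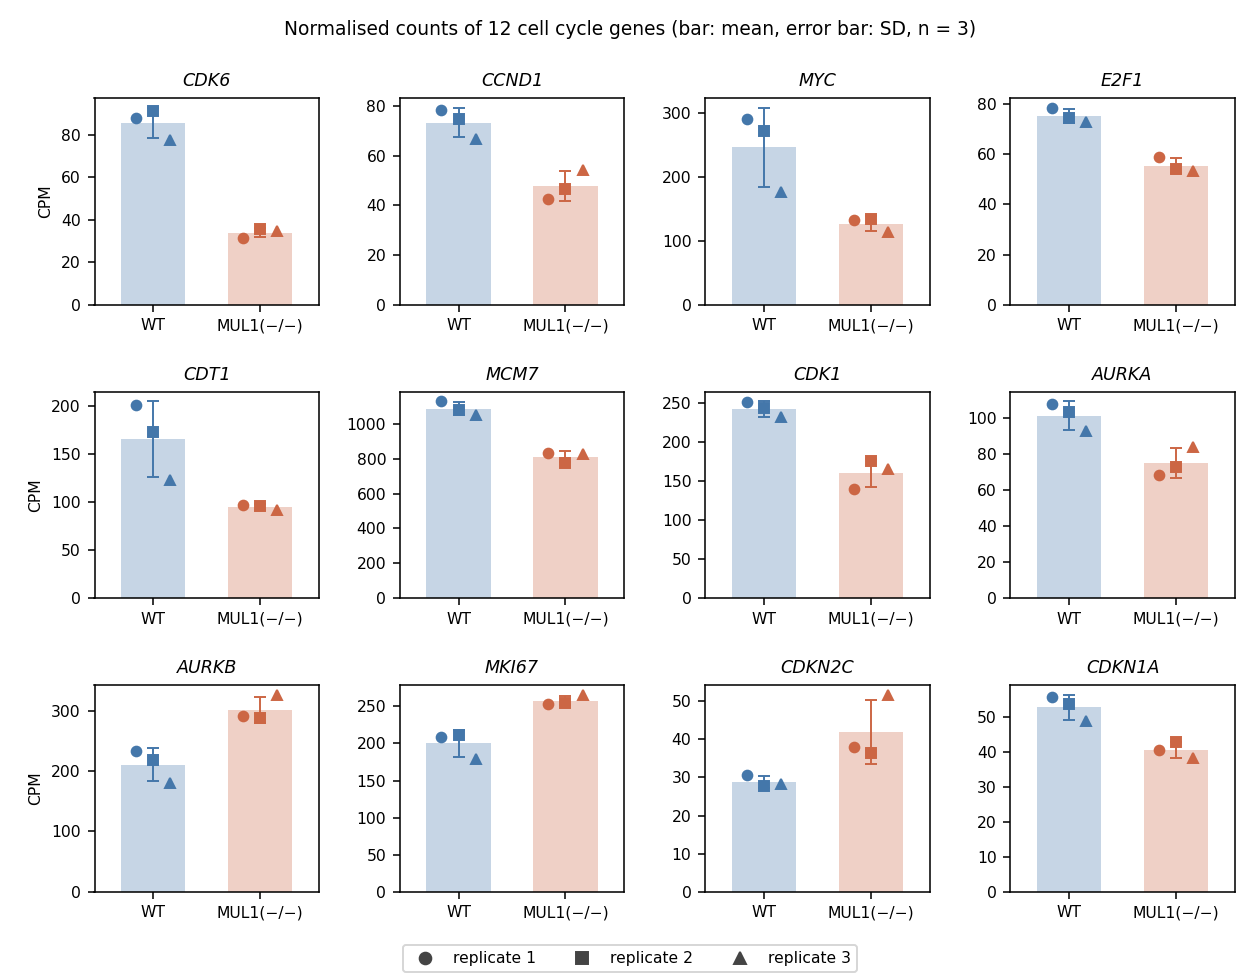
Each panel shows a gene, with CPM on the y axis from 0, bars for the mean of 3 libraries, error bars for the SD and symbols for the replicate number. CDK6 fell from a mean of 85.6 to 33.9 CPM, and in MYC and CDT1 WT library 3 lies well below the other two WT libraries but above the MUL1(−/−) ones.

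Of the 5 CDK inhibitors, 3 were higher, 1 lower and 1 not past. The 3 INK4 genes on the list, CDKN2A, CDKN2B and CDKN2C, which bind CDK4 and CDK6, were higher. Of the CIP/KIP genes, CDKN1A was lower and CDKN1B did not pass. CDKN2C (chr1:50960745-50974633), which encodes p18, had 30.5, 27.7 and 28.2 CPM in WT libraries 1 to 3 and 38, 36.4 and 51.6 CPM in MUL1(−/−) libraries 1 to 3. All MUL1(−/−) libraries were above all WT libraries, and library 3 was well above the other two. The log2 fold change of CDKN2C was 0.55 (SE 0.11, edgeR adjusted p = 0.00125), and 0.35 (edgeR adjusted p = 7.11e-05) without library 3 of both genotypes. Of its 5 exon bins with a mean of at least 100 counts, 3 were higher without overlap and 1 was lower. CDKN2B (chr9:22002903-22009363), which encodes p15, had 16.8, 15.8 and 16.7 CPM in WT libraries 1 to 3 and 20.2, 19.4 and 18.8 CPM in MUL1(−/−) libraries 1 to 3. These ranges were narrow and did not overlap. CDKN2B had a log2 fold change of 0.25 (SE 0.08, edgeR adjusted p = 0.0258), a call that was lost without any 1 of libraries 1 and 2 of either genotype and with its most counted bin alone, which gave 0.15 (edgeR adjusted p = 0.208, and over the libraries left out 0.0501 to 0.127).

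CDKN1A (chr6:36676460-36687339), which encodes p21 and is a classic p53 target, had 55.8, 53.8 and 48.8 CPM in WT libraries 1 to 3 and 40.6, 43 and 38.2 CPM in MUL1(−/−) libraries 1 to 3. Here each MUL1(−/−) library was lower than each WT library. Its log2 fold change was -0.38 (SE 0.08, edgeR adjusted p = 0.00124), with 7 of 8 exon bins lower without overlap. CDKN1B, which encodes p27, had 59.3, 56.2 and 56 CPM in WT and 45.7, 47.7 and 57.6 CPM in MUL1(−/−), in order of replicate number. MUL1(−/−) library 3 reached the WT range. Its log2 fold change was -0.18 (SE 0.09, edgeR adjusted p = 0.108), and -0.31 (edgeR adjusted p = 0.000345) without library 3 of both genotypes.

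The CDKN2A locus on chromosome 9 makes p16 and ARF, which stabilises p53, from different first exons that are spliced to a common second exon. CDKN2A as a whole had a log2 fold change of 0.19 (SE 0.07, edgeR adjusted p = 0.0401), a call lost with DESeq2 (adjusted p = 0.0669), without library 3 of both genotypes, at 0.13 (edgeR adjusted p = 0.144), and without any 1 of WT libraries 2 and 3 and MUL1(−/−) libraries 1 and 3 (edgeR adjusted p 0.0729 to 0.168). The first exon of p16 (chr9:21974678-21975098) had 29.4, 28.1 and 27.6 CPM in WT libraries 1 to 3 and 29.5, 27.0 and 28.0 CPM in MUL1(−/−) libraries 1 to 3. These ranges overlapped. The first exon of ARF (chr9:21994139-21994624) had 24.6, 21.3 and 20.5 CPM in WT and 29.7, 28.7 and 35.6 CPM in MUL1(−/−) libraries 1 to 3, and here they did not overlap. As a share of the CDKN2A counts, the p16 exon went from 10.4% ± 0.306 (SD, n = 3) to 9.01% ± 0.495 (SD, n = 3), and the ARF exon from 8.06% ± 0.382 (SD, n = 3) to 10.00% ± 0.659 (SD, n = 3). Both shares gave p = 0.1 in an exact two-sided permutation test, the smallest that 3 against 3 libraries allow, so neither can pass 0.05.

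Among the pocket proteins, E2F factors and MYC, 6 of 7 genes passed, 5 lower and 1 higher. MYC (chr8:127735434-127741434), a transcription factor that promotes growth and S phase entry, had 292, 272 and 176 CPM in WT libraries 1 to 3 and 134, 134 and 114 CPM in MUL1(−/−) libraries 1 to 3. WT library 3 was far below the other WT libraries and still above every MUL1(−/−) library. Its log2 fold change was -0.96 (SE 0.14, edgeR adjusted p = 6.58e-05). Without library 3 of both genotypes it was -1.08 (edgeR adjusted p = 1.14e-29), which takes MYC past both thresholds, as does leaving out WT library 3 alone (-1.15, edgeR adjusted p = 1.55e-07). E2F2 (chr1:23506430-23531220), an activating E2F, had 36.8, 34 and 26.1 CPM in WT libraries 1 to 3 and 22, 20.4 and 18.9 CPM in MUL1(−/−) libraries 1 to 3. No WT library was as low as any MUL1(−/−) library, with WT library 3 again the lowest of its group. E2F2 differed by -0.66 (SE 0.11, edgeR adjusted p = 0.00026) on the log2 scale. E2F1 (chr20:33675683-33686404), the activating E2F that also switches on its own gene, had 78.5, 74.2 and 72.8 CPM in WT libraries 1 to 3 and 58.9, 54 and 53.4 CPM in MUL1(−/−) libraries 1 to 3. Its groups were tight and did not overlap, and its log2 fold change was -0.44 (SE 0.07, edgeR adjusted p = 0.000172). E2F3, the third activating E2F, had a log2 fold change of 0.08 (SE 0.07, edgeR adjusted p = 0.408).

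The pocket proteins did not move together. RB1 (chr13:48303751-48481986), the retinoblastoma protein, had 74.7, 70.5 and 81.5 CPM in WT libraries 1 to 3 and 83.9, 99.8 and 101 CPM in MUL1(−/−) libraries 1 to 3. All MUL1(−/−) libraries were above WT, with MUL1(−/−) library 1 close to WT library 3. The log2 fold change of RB1 was 0.33 (SE 0.08, edgeR adjusted p = 0.00601), and 18 of 31 exon bins were higher without overlap. RBL1 (chr20:36996349-37095995), which encodes p107 and is itself an E2F target, had 41, 41.9 and 40.7 CPM in WT libraries 1 to 3 and 24.2, 29.7 and 31.1 CPM in MUL1(−/−) libraries 1 to 3. The WT libraries were nearly alike and all MUL1(−/−) libraries were lower. RBL1 had a log2 fold change of -0.54 (SE 0.09, edgeR adjusted p = 0.000243), with 24 of 24 exon bins lower. RBL2, which encodes p130, the pocket protein of resting cells, was lower as well at -0.39 (SE 0.08, edgeR adjusted p = 0.00167).

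Of 12 replication licensing and DNA synthesis genes, 2 were higher (CDC6 and MCM4), 3 lower (CDT1, MCM7 and TYMS) and 7 did not pass. CDT1 (chr16:88803213-88809258), which loads the MCM helicase onto origins, had 201, 173 and 124 CPM in WT libraries 1 to 3 and 97.6, 95.7 and 91.5 CPM in MUL1(−/−) libraries 1 to 3. The WT libraries were spread widely and the MUL1(−/−) libraries were close together below them. Its log2 fold change was -0.81 (SE 0.12, edgeR adjusted p = 0.000125), and -0.96 (edgeR adjusted p = 1.37e-24) without library 3 of both genotypes. GMNN, geminin, which holds CDT1 inactive after licensing, had a log2 fold change of -0.01 (SE 0.07, edgeR adjusted p = 0.898). CDC6 (chr17:40287633-40304657), the partner of CDT1 in licensing, had 102, 101 and 122 CPM in WT libraries 1 to 3 and 130.0, 135 and 122 CPM in MUL1(−/−) libraries 1 to 3. WT library 3 lay at the level of the lowest MUL1(−/−) library, so the groups overlapped slightly. CDC6 had a log2 fold change of 0.25 (SE 0.08, edgeR adjusted p = 0.0235), 0.39 (edgeR adjusted p = 2.72e-06) without library 3 of both genotypes and not past without any 1 of libraries 1 and 2 of either genotype (edgeR adjusted p 0.0586 to 0.129).

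The MCM2 to MCM7 genes encode the ring of the replicative helicase and did not all go one way, with MCM7 lower and MCM4 higher. MCM7 (chr7:100092728-100101940) had 1128, 1079 and 1052 CPM in WT libraries 1 to 3 and 830.3, 778 and 829 CPM in MUL1(−/−) libraries 1 to 3. All MUL1(−/−) libraries were far below all WT libraries, and 31 of 31 exon bins were lower without overlap. MCM7 differed by -0.42 (SE 0.06, edgeR adjusted p = 8.73e-05) on the log2 scale. MCM4 was higher at 0.23 (SE 0.06, edgeR adjusted p = 0.00967), with 31 of 39 exon bins higher, but not past without WT library 2 (edgeR adjusted p = 0.0643). MCM2, MCM3, MCM5 and MCM6 had log2 fold changes of -0.16 (0.071), -0.10 (0.242), -0.09 (0.381) and -0.09 (0.303), with the edgeR adjusted p in parentheses. MCM2 passed without library 3 of both genotypes, at -0.18 (edgeR adjusted p = 0.0367). PCNA, the sliding clamp, had -0.14 (0.0871) and RRM2, a subunit of ribonucleotide reductase, -0.01 (0.952). TYMS, thymidylate synthase, was lower at -0.20 (SE 0.07, edgeR adjusted p = 0.0377), but the call was lost in 9 of 14 alternatives. Bins touched by another gene's exon hold 58.5% of its counts, and without them it was -0.14 (edgeR adjusted p = 0.164). The TYMS call was also lost with DESeq2 (adjusted p = 0.0961), RLE factors (edgeR adjusted p = 0.0539), library totals (-0.13, edgeR adjusted p = 0.127) and no filter (edgeR adjusted p = 0.0937), and without any 1 of WT libraries 1 and 3 and MUL1(−/−) libraries 1 and 2 (edgeR adjusted p 0.0633 to 0.184).

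Of the 7 genes for G2 and entry into mitosis, 1 was lower, 1 higher and 5 did not pass. CDK1 (chr10:60778331-60794852), the kinase of mitotic entry, had 252, 244 and 233 CPM in WT libraries 1 to 3 and 140.5, 176 and 165 CPM in MUL1(−/−) libraries 1 to 3. The genotypes were well apart, and 17 of 17 exon bins were lower without overlap. CDK1 had a log2 fold change of -0.60 (SE 0.08, edgeR adjusted p = 3.65e-05). Its cyclin partners did not pass: CCNA2, CCNB1 and CCNB2 had log2 fold changes of -0.16 (0.15), 0.04 (0.686) and -0.05 (0.633), with the edgeR adjusted p in parentheses. Whether they differ from CDK1 was not tested. Without library 3 of both genotypes CCNA2 passed, at -0.29 (edgeR adjusted p = 0.000725). FOXM1 (chr12:2857681-2877155), a transcription factor that drives G2 and mitotic genes, had 115, 108 and 114 CPM in WT libraries 1 to 3 and 143, 127 and 149 CPM in MUL1(−/−) libraries 1 to 3. Its ranges did not overlap, and 19 of 20 exon bins were higher. The log2 fold change of FOXM1 was 0.31 (SE 0.07, edgeR adjusted p = 0.00305). The CDC25 phosphatases CDC25B and CDC25C, which remove the inhibitory phosphates of CDK1, had -0.06 (0.511) and 0.02 (0.887). The most counted bin of CDC25C alone gave 0.63 (edgeR adjusted p = 0.000247), so its bins did not move alike.

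Mitosis and spindle checkpoint genes went both ways, with 4 of 10 higher, 1 lower and 5 not past. AURKB (chr17:8204733-8210600), the kinase of the chromosomal passenger complex, had 232, 219 and 181 CPM in WT libraries 1 to 3 and 291, 287 and 326 CPM in MUL1(−/−) libraries 1 to 3. Every MUL1(−/−) library was above every WT library, and WT library 3 was the lowest. Its log2 fold change was 0.52 (SE 0.09, edgeR adjusted p = 0.000297), and 0.35 (edgeR adjusted p = 1.1e-05) without library 3 of both genotypes. AURKA (chr20:56369389-56392337), the related kinase of the spindle poles, had 108, 103 and 92.5 CPM in WT libraries 1 to 3 and 68.1, 72.7 and 84 CPM in MUL1(−/−) libraries 1 to 3. It went the other way without overlap, although the libraries numbered 3 came close. AURKA had a log2 fold change of -0.43 (SE 0.09, edgeR adjusted p = 0.000955). MKI67 (chr10:128096659-128126385), which encodes the proliferation marker Ki-67, had 209, 212 and 179 CPM in WT libraries 1 to 3 and 253, 255 and 265 CPM in MUL1(−/−) libraries 1 to 3. All MUL1(−/−) libraries were higher. The log2 fold change of MKI67 was 0.37 (SE 0.07, edgeR adjusted p = 0.00106), with 20 of 22 exon bins higher.

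BIRC5, survivin, which sits in the same complex as AURKB, was higher at 0.28 (SE 0.08, edgeR adjusted p = 0.0151), and CDC20, the activator of the anaphase-promoting complex, at 0.21 (SE 0.08, edgeR adjusted p = 0.0393). Both calls were lost without library 3 of both genotypes, at 0.14 (edgeR adjusted p = 0.117) and 0.14 (edgeR adjusted p = 0.111). The BIRC5 call was also lost without WT library 2 or MUL1(−/−) library 3 (edgeR adjusted p = 0.051 and 0.0663), and that of CDC20 with DESeq2 (adjusted p = 0.0621) and without any 1 of WT libraries 2 and 3 and MUL1(−/−) libraries 1 and 3 (edgeR adjusted p 0.0618 to 0.18). TOP2A, topoisomerase II, had -0.12 (0.261) and PLK1, polo-like kinase, 0.17 (0.181), with the edgeR adjusted p in parentheses. The checkpoint genes BUB1, BUB1B and MAD2L1 had 0.00 (0.984), -0.15 (0.114) and -0.04 (0.66). Without library 3 of both genotypes TOP2A passed at -0.22 (edgeR adjusted p = 0.00664) and BUB1B at -0.21 (edgeR adjusted p = 0.0127), and BUB1B also without WT library 3 alone (-0.21, edgeR adjusted p = 0.0279). PLK1 went to -0.01 (edgeR adjusted p = 0.934) without library 3 of both genotypes and passed with library totals, at 0.24 (edgeR adjusted p = 0.0463), and with no filter, at 0.20 (edgeR adjusted p = 0.0453).

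Of the 2 genes of the p53 response, 1 was lower and 1 did not pass. GADD45A (chr1:67685061-67688338), a growth arrest gene that p53 and other stress factors raise, had 46.3, 43.9 and 38.6 CPM in WT libraries 1 to 3 and 32.1, 34.4 and 28.3 CPM in MUL1(−/−) libraries 1 to 3. Its ranges did not overlap. GADD45A had a log2 fold change of -0.44 (SE 0.09, edgeR adjusted p = 0.00126). MDM2 (chr12:68808176-68850686), the ubiquitin ligase for p53 and its target, had 153, 159 and 163 CPM in WT libraries 1 to 3 and 127, 145 and 178 CPM in MUL1(−/−) libraries 1 to 3. The MUL1(−/−) libraries were widely spread and took in the whole WT range. MDM2 had a log2 fold change of -0.08 (SE 0.10, edgeR adjusted p = 0.572), and -0.20 (edgeR adjusted p = 0.0188) without library 3 of both genotypes.

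**Figure D3:**
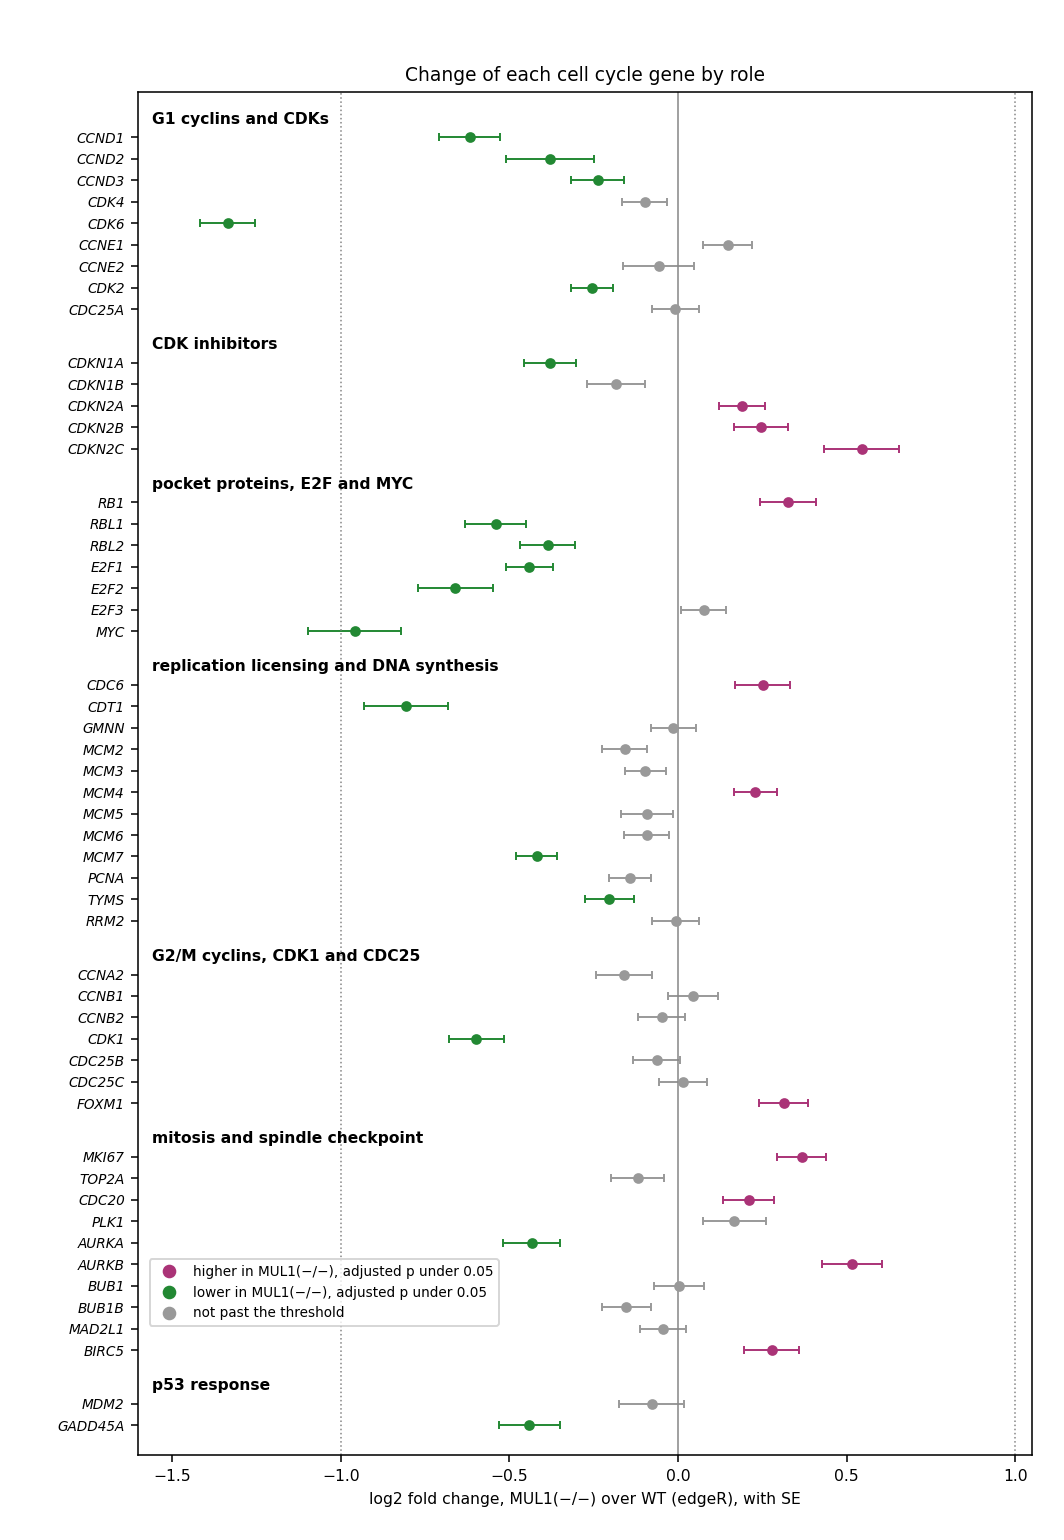
Each point is the log2 fold change of a gene, MUL1(−/−) over WT, with its SE as a bar. Colour gives the call at an adjusted p under 0.05, and dotted lines mark -1 and 1. CDK6 is the only point beyond a dotted line, and the pocket protein group holds 5 of its 7 points on the lower side.

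Several of the genes lay among neighbours that differed the same way. For each gene the median log2 fold change of the 20 nearest tested genes, 10 on each side along the chromosome, was taken as the level of its neighbourhood. It had the sign of the gene itself for 35 of 52 genes, and for 21 of the 28 that passed. Across the 52 genes the log2 fold change and the neighbourhood median had Pearson r = 0.61 and Spearman rho = 0.53. This correlation is across genes, which share libraries and in part neighbours and are not independent replicates, and it is given as a description. The same counts, correlations and distances were not taken over all tested genes. Those given here and below therefore do not show whether closeness to neighbours is particular to these genes. Chromosome 20, with RBL1, E2F1 and AURKA all lower, had a median log2 fold change of -0.35 over 643 tested genes, 46.2% of them lower. PCNA and CDC25B, on the same chromosome, did not pass and had neighbourhood medians of 0.13 and 0.06. Chromosome 17, with CDC6, AURKB and BIRC5 higher, had a median of 0.21 over 1664 tested genes, 35.7% of them higher. TOP2A, also on chromosome 17, did not pass, at -0.12 with a neighbourhood median of 0.24, and the neighbourhood of BIRC5 itself was at -0.14. Chromosome 10, with CDK1 lower and MKI67 higher, had a median of -0.30 over 1001 tested genes, 40.9% of them lower.

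The genes that passed fell into those close to their neighbours and those apart from them. For 18 of the 28, the log2 fold change was within 0.25 of the neighbourhood median, among them E2F1 (difference 0.02), E2F2 (0.17), RBL1 (-0.12), MCM7 (-0.12), AURKA (-0.09), AURKB (0.07), RB1 (0.10) and CDK1 (-0.24). For E2F1, E2F2 and MCM4 the difference had the opposite sign to the log2 fold change itself. The other 10 were more than 0.4 from their neighbours. CDK6 was -0.95 from its neighbourhood, MYC -0.88, CDT1 -0.70, CCND1 -0.62, CDKN1A -0.49, GADD45A -0.47 and CCND2 -0.43. BIRC5 and FOXM1 stood 0.42 and 0.42 above theirs and CDKN2C 0.62. With 5 or 20 genes on each side the neighbourhood median of MKI67 went from 0.33 to -0.21 and 0.03, so its closeness depends on the window. Over these windows, 17 and 16 of the 28 were within 0.25 and 9 and 8 more than 0.4 away. Of the 18 within 0.25, 6 had a log2 fold change under 0.25 in size themselves. The part of the neighbourhood in any gene's difference was not tested.

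Calls were also counted by promoter letters, as a description with no test. Of the 12 genes with the E2F letters, 5 were lower, 1 higher and 6 not past. Of the 29 with a promoter but without the letters, 6 were lower, 7 higher and 16 not past. Of the 14 with the CHR letters, 2 were lower (CDK1 and RBL2), 2 higher (MKI67 and CDC20) and 10 not past. Of the 27 without them, 9 were lower, 6 higher and 12 not past. Of the 28 with CCAAT, 5 were lower, 5 higher and 18 not past, and of the 13 without it 6, 3 and 4.

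Other genes of the cycle were read in 6 lists of 150 genes in all. Of these, 32 were higher, 38 lower and 80 not past, so 46.7% passed. Of all tested genes 37.6% passed, 18.8% in each direction. Of the 8412 tested genes at or above the level of the lowest of the 52, 47.2% passed. With library totals in place of TMM factors, 43 of the 150 were higher and 31 lower. Among 14 E2F, pocket protein and DREAM partners, 5 were higher and 3 lower. MYBL2, the B-MYB factor of the MuvB complex, had a log2 fold change of -0.55 (SE 0.07, edgeR adjusted p = 1.97e-05), E2F8, a repressive E2F, 0.36 (SE 0.09, edgeR adjusted p = 0.00631), and RBBP4, a histone-binding DREAM subunit, -0.34 (SE 0.06, edgeR adjusted p = 0.000575). The 20 other cyclins, CDKs, inhibitors and regulators had 2 higher and 6 lower. CDKN1C, which encodes the inhibitor p57, had 4.94, 4.44 and 3.07 CPM in WT and 1.27, 1.64 and 0.881 CPM in MUL1(−/−). It was low in every MUL1(−/−) library and passed both thresholds at -1.71 (SE 0.21, edgeR adjusted p = 1.52e-05). FZR1, the anaphase-promoting complex activator of G1, was higher at 0.87 (SE 0.08, edgeR adjusted p = 1.71e-06), as was CDKN2D, the remaining INK4 gene, at 0.59 (SE 0.14, edgeR adjusted p = 0.0042). The neighbourhood medians were 0.78 for FZR1 and 0.60 for CDKN2D, close to the genes themselves, and -0.05 for CDKN1C. Those of MYBL2, RBBP4 and E2F8 were -0.46, -0.13 and -0.04, so MYBL2 too lay close to its neighbours.

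The 45 other replication genes were evenly divided, with 11 higher, 12 lower and a median log2 fold change of -0.02. CHAF1A, a subunit of the chromatin assembly factor that follows the fork, was higher at 0.75 (SE 0.07, edgeR adjusted p = 9.01e-07). RPA2, of the single-strand binding complex, was lower at -0.69 (SE 0.07, edgeR adjusted p = 4.34e-06), and GINS1, of the helicase, at -0.67 (SE 0.07, edgeR adjusted p = 4.51e-06). The neighbourhood medians of RPA2 and GINS1 were also lower, at -0.43 and -0.37. Among 36 other mitosis genes 9 were higher and 8 lower. NEK2, a centrosome kinase, had 0.66 (SE 0.07, edgeR adjusted p = 5.34e-06), ECT2, which directs cytokinesis, 0.44 (SE 0.08, edgeR adjusted p = 0.000723), and CENPF, a kinetochore protein, 0.42 (SE 0.07, edgeR adjusted p = 0.000139).

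Of 23 genes of the p53 list, 3 were higher and 7 lower. PMAIP1, which encodes the apoptotic protein NOXA, had 233, 228 and 196 CPM in WT and 98.7, 120.3 and 155 CPM in MUL1(−/−). It was lower in every MUL1(−/−) library, with a log2 fold change of -0.81 (SE 0.12, edgeR adjusted p = 0.000106). FAS, a death receptor, was lower at -0.59 (SE 0.10, edgeR adjusted p = 0.000311) and DDB2, a DNA damage sensor, at -0.55 (SE 0.10, edgeR adjusted p = 0.000339). In the MYC network and among GADD45 relatives, 2 of 12 genes were higher and 2 lower. GADD45G had 5.5, 5.39 and 4.7 CPM in WT and 1.66, 1.32 and 1.45 CPM in MUL1(−/−), with no overlap, and passed both thresholds at -1.82 (SE 0.13, edgeR adjusted p = 1.01e-07). GADD45B went the other way at 0.91 (SE 0.09, edgeR adjusted p = 1.46e-06), and MXI1, a MAX partner that opposes MYC, was lower at -0.86 (SE 0.08, edgeR adjusted p = 1.24e-06).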

How the data were processed

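RNA-seq libraries of HEK293 WT and MUL1(−/−) cells (3 each) were deposited as raw read counts for 597973 exon bins, which the authors made after trimming with Trimmomatic 0.36 and aligning with STAR 2.5.2b to GRCh38, per the submitters' processing notes. The counting program is not given in the sources used here. How a read that spans several bins was counted is not stated either, so a sum over bins need not equal a number of reads. Bins were summed per gene. Bins under 2031 joined identifiers (21.0% of counts) were assigned with GENCODE 29 exons, and 1.07% of counts went to no gene. Where 2 bins on opposite strands covered identical positions (10 pairs), the median ratio of their counts was 1, so sense and antisense reads cannot be told apart. Other overlaps are given as shared bins.

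WT and MUL1(−/−) were compared with edgeR 4.0.16 in R 4.3.3 (quasi-likelihood test, TMM, filterByExpr, Benjamini-Hochberg over 25172 genes). The call was an adjusted p under 0.05. The SE is the log2 fold change over the square root of F. In data simulated for this comparison over 25172 genes, 189 of 200 genes changed by 1 on the log2 scale were recovered, with 12 false calls. That simulation changed far fewer genes than passed here, and by more than most of the 52 genes differed. It does not show how well small differences are recovered. Alternatives were DESeq2 1.42.0, RLE factors, library totals, no filter, a replicate block, the most counted bin, unshared bins and leaving out libraries. Members and lists were chosen with earlier results of these data known. Per-library values are given for genes past both thresholds and the 3 per role with the largest change among those called. They are also given for MDM2, GADD45A, CDKN1A, RB1, E2F1 and MYC and, outside these rules, for CDKN1B and PMAIP1. Up to 3 genes are named per other list. Windows for promoter sequences, the distance of 0.25 or 0.4 from neighbours and the size of 0.5 were chosen after values were seen. Sequences came from RefSeq tables. The floor of 3 counts covers counting error only. A further marker of other cell types is not reported here.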

Additional observations from a re-analysis of the deposited data

How the results depend on the processing

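Of the 28 genes that passed, 18 kept their direction and their side of the threshold in all 14 alternatives, 10 fell short in at least 1, and 0 reversed in them. The count that passed was 25 with DESeq2, 27 with RLE factors, 27 with library totals, 28 without a filter, 27 with the most counted bin, 27 with unshared bins, and 32 without library 3 of both genotypes, an alternative chosen after seeing the data. That last setting took 2 genes lower past both thresholds. Leaving out 1 library at a time called 20 to 26 of the 52 genes at an adjusted p under 0.05. Of these, 5 to 9 were higher (5 without WT library 2, 7 without MUL1(−/−) library 1) and the others lower. Past both thresholds, 1 to 2 of the 52 were lower. Of the 150 other cycle genes, 21 to 36 were higher at an adjusted p under 0.05 (21 without WT library 2). Deviations from the genotype mean had correlations of -0.077, 0.166 and 0.104 between libraries of the same number, and of -0.182 to 0.098 between libraries of different numbers. These weak values do not settle whether replicate numbers pair the samples. The fit with a replicate block called 28 genes, all of the same 28, with BUB1 at -5.96e-05. The log2 fold changes that changed sign were those of genes not past the test, apart from 3 differences from neighbours. With library totals, which shift the median of all genes by 0.07, they were CCNE2 0.0096, CDC25A 0.064, GMNN 0.055, RRM2 0.063, CCNB2 0.021, CDC25B 0.00746 and MAD2L1 0.026. Without a filter they were CDC25A 0.023, GMNN 0.017 and RRM2 0.024, with DESeq2 CDC25A 0.000387 and RRM2 0.00197, and with RLE factors RRM2 0.000586. The most counted bin gave GMNN 0.025 and RRM2 0.055, and unshared bins RRM2 0.014 and CDC25C -0.023. Without library 3 of both genotypes CCNE2 was 0.046, CCNB1 -0.053, PLK1 -0.00974 and BUB1 -0.044. Leaving out 1 library gave CCNE2 -0.12 to 0.059, CDC25A -0.041 to 0.047, GMNN -0.037 to 0.038, RRM2 -0.066 to 0.035, CCNB1 -0.043 to 0.11, BUB1 -0.038 to 0.079, MAD2L1 -0.066 to 0.018 and MDM2 -0.22 to 0.042. Less the median of 20 neighbours, E2F1 was 0.021, E2F2 0.17 and MCM4 -0.16. The cause of these shifts was not tested. All 52 genes had counts far above the floor.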
